A study of Mus musculus with 24 samples.

Results

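The genes described here encode 10 Toll-like receptors and partner proteins, followed in B lymphomas of mice that carry a Bcl6 transgene. They are the surface receptors Tlr1, Tlr6, Tlr4 and Cd180, the Cd180 partner Ly86, the endosomal receptors Tlr7 and Tlr9, the chaperone Unc93b1, the adaptor Myd88 and the kinase Irak4. They were chosen by symbol from the deposited count table, which lists all 10 of them among 11140 genes, and all 10 passed the filter on low counts that left 11020 genes to test. RNA was taken from purified splenic B lymphoma cells, and all mice were of the strain C57BL/6. The T cell sufficient group held 12 lymphomas of the genotype Bcl6Tg/+. The T cell deficient group held 11 lymphomas of mice with the same Bcl6 transgene and the additional genotype CD3Epsilon-/-, which removes a chain of the T cell receptor complex that T cells need to develop. Both groups thus carry the transgene, and the series has no group without it. The sources used here do not give the promoter of the transgene, nor the age or sex of the mice.

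Toll-like receptors bind microbial molecules and pass the signal through the adaptor MyD88 and the kinase IRAK4 to NF-kB and interferon regulatory factors. TLR1, TLR6 and TLR4 act at the cell surface, while TLR7 and TLR9 bind RNA and DNA in endosomes, where the chaperone UNC93B1 takes them. B cells use both kinds, and CD180, a TLR4 relative that lacks the signalling domain and pairs with MD-1 (the product of Ly86), also acts on B cell activation. In human B cell lymphomas, MyD88, TLR9 and the B cell receptor are known to form a signalling complex.

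The 23 libraries held 7.58 to 30.6 M counts (M, mega) over the listed genes, and 3 counts were worth 0.098 to 0.396 CPM, a limit that covers counting error only. Run 1 held 7 sufficient and 5 deficient libraries, and run 2 held 5 and 6. Levels are given as CPM, counts scaled to the TMM-corrected library size. A gene is called when its Benjamini-Hochberg adjusted p over all genes tested is under 0.05 in edgeR's quasi-likelihood test, fitted with run and group. The 9 B cell markers were all listed, with a summed level of 14600 to 23500 CPM in sufficient and 8070 to 16000 CPM in deficient libraries, and 5 of them were lower in deficient lymphomas. Macrophage and monocyte markers, of which 14 of 15 are listed, summed to 202 to 2270 CPM in sufficient and 125 to 601 CPM in deficient libraries, and 5 were lower in deficient lymphomas. T cell markers, 7 of 11 listed, summed to 104 to 592 CPM and 113 to 767 CPM, and none was called. Most of that sum is Lck (means 315 and 466 CPM), while Cd3e averaged 0.966 and 2.47 CPM, Cd4 1.69 and 1.96 CPM and Thy1 2.38 and 2.87 CPM in the 2 groups. Cd3g averaged 5.64 and 1.92 CPM, Cd8b1 9.76 and 11.4 CPM and Cd28 9.43 and 1.29 CPM. These were uneven, reaching 22.0 CPM (Cd3g) and 66.2 CPM (Cd28) in a sufficient library and 78.7 CPM (Cd8b1) in a deficient one. Of the sufficient libraries, 3 of run 2 (9, 10 and 11) held both Xist and Y-linked transcripts above 10 CPM. Results whose call turns on those 3 libraries are given with their value without them.

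The endosomal receptors Tlr7 and Tlr9 and their chaperone Unc93b1 were lower in T cell deficient lymphomas, as were the surface partner Ly86 and the kinase gene Irak4. The surface receptors Tlr1, Tlr6, Tlr4 and Cd180 and the adaptor Myd88 did not pass the test. Of the 10 genes, 5 were called, all of them lower, against 22.2% of all genes tested called in either direction and 11.7% called lower. The log2 fold changes of deficient over sufficient lymphomas were negative for 8 of the 10 and positive for 2 (Tlr4 and Myd88), with a median of -0.49 beside -0.01 for all genes tested. In bulk RNA, fewer cells that express a gene and less RNA per cell cannot be told apart.

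**Figure D1:**
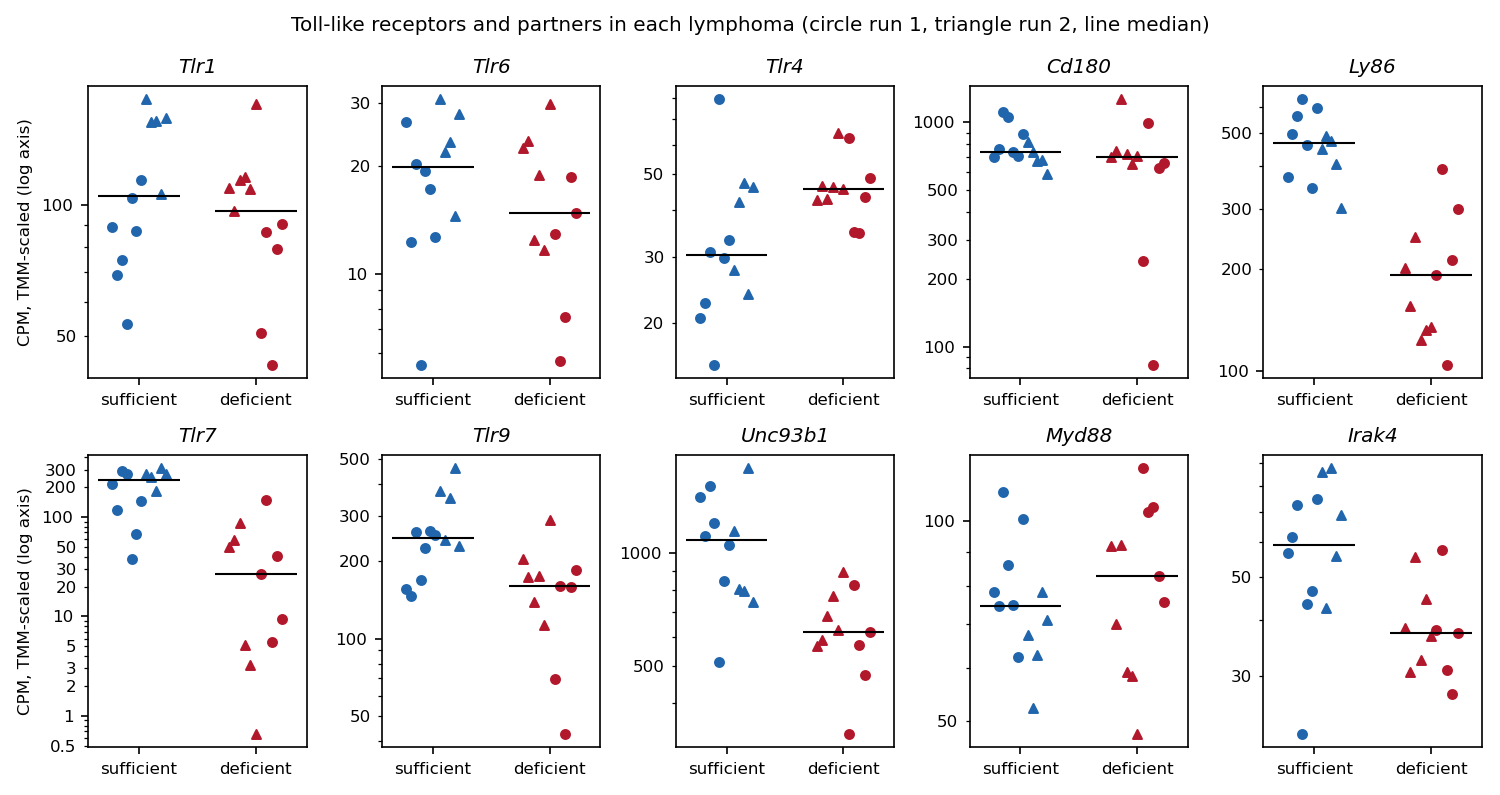
Level of each gene in each lymphoma (CPM scaled by TMM, log axis, a separate range per gene), with circles for run 1, triangles for run 2 and a line at the group median. For Ly86, 10 of 11 deficient libraries lie below the lowest sufficient one, and for Tlr7 the deficient libraries spread from 0.656 to 147 CPM.

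Levels per kilobase used the merged length of all annotated exons of a gene, which can exceed that of its transcript. This length was 3632 bases for Ly86 and 4509 for Cd180, while transcripts Ly86-201 and Cd180-201 have 1134 and 2650. The order of Cd180 and Ly86 thus depends on the length chosen. Per kilobase of merged exon, the highest mean level in sufficient lymphomas was that of Unc93b1, at 353 CPM per kb ± 115 (SD, n = 12). Cd180 followed at 175 ± 34.9 and Ly86 at 128 ± 27.3 CPM per kb. By this length, each of these steps held in at least 11 of 12 libraries and exceeded the larger of the 2 SDs. Tlr9 (75.0 ± 26.9) and Tlr7 (49.6 ± 22.4 CPM per kb) came next, and neither the step between them nor that from Tlr7 to Tlr1 (33.3 ± 12.0) nor that from Tlr1 to Myd88 (29.7 ± 6.34) was larger than the SD. Irak4 (11.9 ± 3.85), Tlr4 (6.29 ± 3.09) and Tlr6 (5.21 ± 1.97 CPM per kb) were the lowest, and the last 2 differed by less than their spread. In deficient lymphomas the order was the same at the top, with Unc93b1 at 208 ± 52.6, Cd180 at 149 ± 70.4 and Ly86 at 54.9 ± 23.9 CPM per kb (SD, n = 11). There the steps from Unc93b1 to Cd180 and from Ly86 to Tlr9 (44.7 ± 19.1) were smaller than the larger SD. Tlr7, at 9.68 ± 11.1 CPM per kb, came after Myd88 (32.0 ± 8.75) and Tlr1 (28.9 ± 10.3), and was followed by Tlr4, Irak4 and Tlr6 at 8.39 ± 1.7, 7.79 ± 1.95 and 4.36 ± 1.95 CPM per kb. The steps from Tlr9 to Myd88, Myd88 to Tlr1, Tlr7 to Tlr4 and Tlr4 to Irak4 were also smaller than the larger SD. Tlr7 was above Tlr4 in only 5 of 11 libraries.

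Among the surface receptors, Tlr1 and Tlr6 are neighbours on chromosome 5 and encode the alternative partners of TLR2 for bacterial lipoproteins. Tlr1 lies at chr5:64924679-64933563 and Tlr6 at chr5:64952031-64960097 (GRCm38, both on the minus strand, GENCODE M21). They are near-identical over part of their coding sequence. Of the 50-base windows of the Tlr1 transcript, 15.3% are also found in Tlr6, and 12.6% of those of Tlr6 are found in another gene, so the authors' counting could split or drop reads there. The longest run shared letter for letter has 229 bases and lies inside both coding parts, at bases 1939 to 2167 of transcript Tlr1-202 and 1652 to 1880 of Tlr6-201. It is shown because a read from it cannot be assigned to 1 of the 2 genes.
Tlr1 and Tlr6, shared: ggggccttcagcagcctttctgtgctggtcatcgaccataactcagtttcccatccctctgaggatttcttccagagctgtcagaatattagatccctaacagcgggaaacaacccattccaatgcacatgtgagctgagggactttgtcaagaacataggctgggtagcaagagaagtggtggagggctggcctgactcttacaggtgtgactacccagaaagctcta

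Tlr1 ranged from 53.2 to 174 CPM in sufficient lymphomas (median 104) and from 43.0 to 170.1 CPM in deficient ones (median 96.5). Tlr6 ranged from 5.56 to 30.8 CPM (median 19.9) and from 5.70 to 29.9 CPM (median 14.8). The groups overlap over nearly their whole ranges for both genes. Neither passed the test (edgeR, log2 fold change -0.30 ± 0.14 SE, adjusted p = 0.134 for Tlr1, and -0.36 ± 0.24 SE, adjusted p = 0.286 for Tlr6). The unadjusted permutation of the groups within runs gave p = 0.048 and 0.163 (two-sided). Tlr1 was set apart more by run: sufficient lymphomas averaged 84.3 CPM ± 20.7 (SD, n = 7) in run 1 against 149 CPM ± 25.9 (SD, n = 5) in run 2, and deficient ones 69.9 CPM ± 21.6 (SD, n = 5) against 119 CPM ± 26.0 (SD, n = 6). This run difference was not tested.

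Tlr4, the receptor for bacterial lipopolysaccharide (chr4:66827584-66930284, plus strand), had a positive log2 fold change that did not pass the test. Its level was 15.4 to 79.2 CPM in sufficient lymphomas (median 30.4) and 34.8 to 64.5 CPM in deficient ones (median 45.6). All 11 deficient libraries lay above the sufficient median, and 1 sufficient library, number 5, lay above every deficient one. The log2 fold change was 0.40 ± 0.21 SE (edgeR, adjusted p = 0.175), and permutation within runs gave an unadjusted two-sided p of 0.0269. Without sufficient library 5 it was 0.59 (edgeR, adjusted p = 0.01), so this 1 library decides the call.

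Cd180 (chr13:102693558-102739629, plus strand) was the most abundant of the 4 surface receptors. Its level was 592 to 1117 CPM in sufficient lymphomas (median 739) and 82.6 to 1269 CPM in deficient ones (median 705). The deficient group holds both the highest and the lowest library, and numbers 9 (82.6 CPM) and 7 (241 CPM), both of run 1, lie far below the other deficient libraries. The difference did not pass the test (edgeR, log2 fold change -0.27 ± 0.28 SE, adjusted p = 0.499). The sign differed between runs. Run 1 gave 852 CPM ± 171 (SD, n = 7) for sufficient and 521 CPM ± 363 (SD, n = 5) for deficient lymphomas (two-sided exact permutation over 792 splits, p = 0.0328). Run 2 gave 700.4 CPM ± 84.8 (SD, n = 5) for sufficient and 799.9 CPM ± 232 (SD, n = 6) for deficient lymphomas (462 splits, exact p = 0.47). The test of group by run gave an unadjusted p of 0.0959 for Cd180 (edgeR, adjusted p = 0.767). The summed B cell markers of these 2 deficient libraries were the lowest of all, 8070 CPM in number 7 and 9600 CPM in number 9. The same libraries held the highest sums of the deficient group for plasma cell markers (2780 and 3380 CPM) and neutrophil markers (146 and 65.8 CPM). The part of these transcripts in the low Cd180 was not tested.

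Ly86 (chr13:37345208-37419036, plus strand) encodes MD-1, which CD180 needs to reach the cell surface. Its level was 303 to 630.3 CPM in sufficient lymphomas (median 469) and 104 to 392 CPM in deficient ones (median 192). Of the 11 deficient libraries, 10 lay below the lowest sufficient one, with number 8 the exception at 392 CPM. Ly86 fell 2.29-fold, from a mean of 466 CPM ± 99.2 (SD, n = 12) to 199 CPM ± 86.8 (SD, n = 11). The log2 fold change was -1.20 ± 0.18 SE (edgeR, adjusted p = 0.000257), and permutation within runs gave p = 2e-05 (two-sided). It was lower in each run taken alone, with an exact permutation p of 0.00379 in run 1 and 0.00216 in run 2. Every deficient library of run 2 lay below every sufficient one of that run for Ly86 and also for Tlr7, as they did for 4.12% of all genes tested. In run 1 this held for none of the 10 genes and for 0.599% of all genes.

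The promoter of Ly86 is shown since Ly86 is the called gene with the smallest p. It is the window from 250 bases before to 50 bases after the start site given by RefSeq (GRCm38.p6), chr13:37345095-37345394 on the plus strand. The promoters of 7 of the 10 genes (all but Tlr4, Tlr7 and Unc93b1) were searched on both strands for the core bound by PU.1 (GAGGAA) and for the octamer of B cell promoters (ATGCAAAT), which share no overlap here. Of the 32851 promoters in the table, 28.3% hold the PU.1 core and 1.74% the octamer. The search found no match in the Ly86 window, so the sequence has no capitals.
Ly86 promoter: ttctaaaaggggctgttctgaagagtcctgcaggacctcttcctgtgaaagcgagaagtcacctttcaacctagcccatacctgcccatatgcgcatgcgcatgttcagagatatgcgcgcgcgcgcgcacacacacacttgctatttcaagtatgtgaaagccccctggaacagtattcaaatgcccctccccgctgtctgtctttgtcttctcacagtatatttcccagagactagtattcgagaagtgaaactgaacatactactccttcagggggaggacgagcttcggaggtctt

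The levels of Cd180 and Ly86 were correlated in the sufficient group by Pearson's r, and by rank the relation missed the threshold after adjustment. Over the 12 sufficient lymphomas, Pearson's r of their log2 CPM was 0.817 (permutation p = 0.00138, adjusted p = 0.0193 over 14 relations, that is 7 pairs in 2 groups) and Spearman's rho was 0.776 (permutation p = 0.00436, adjusted p = 0.061). Without the 2 libraries farthest from the Cd180 median (3 and 4) r was 0.796 (adjusted permutation p = 0.0914), and within the 7 libraries of run 1 it was 0.826. Over the 11 deficient lymphomas r was 0.514 and rho 0.391, which did not pass (permutation p = 0.103 and 0.238, adjusted p = 0.24 and 0.476). Without the 2 farthest libraries (7 and 9) r was 0.463. After the run means were subtracted r was 0.889 (permutation p = 0.00048, adjusted p = 0.00672), and within the 6 deficient libraries of run 2 it was 0.783. The difference between the 2 groups' correlations was not tested.

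**Figure D2:**
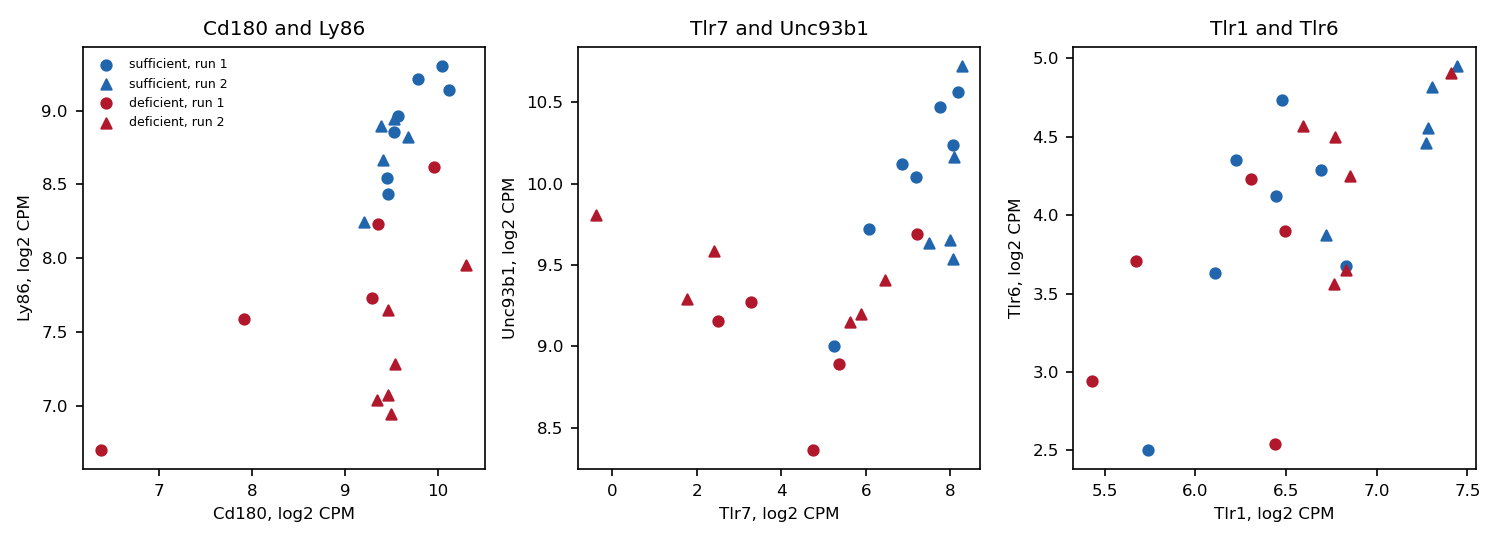
Log2 CPM of 3 pairs of partner genes in each lymphoma, blue for sufficient and red for deficient, circles for run 1 and triangles for run 2. Cd180 and Ly86 lie along a line in the sufficient group (r = 0.817), and Tlr7 and Unc93b1 do not in the deficient group (r = -0.275).

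Tlr7, the receptor for single-stranded RNA, lies on the X chromosome (chrX:167304929-167330558, minus strand). It showed the largest fold change of the 10 genes and the widest spread. Its level was 38.0 to 309 CPM in sufficient lymphomas (median 234) and 0.656 to 147 CPM in deficient ones (median 26.8). The groups overlap, and 6 of the 11 deficient libraries lay below the lowest sufficient one while 8 of the 12 sufficient ones lay above the highest deficient one. In 5 deficient libraries Tlr7 was below 10 CPM, at 5.20 in number 4, 3.27 in number 5, 0.656 in number 6, 5.55 in number 9 and 9.53 CPM in number 11. No sufficient library was that low, the lowest being numbers 5 (38.0 CPM) and 6 (67.5 CPM). Even number 6 of the deficient group had 15 Tlr7 reads. The highest deficient library held 225-fold more Tlr7 than the lowest, against 8.13-fold in the sufficient group.

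Tlr7 fell 5.1-fold in the edgeR fit, from a mean of 202 CPM ± 91.4 (SD, n = 12) to 39.5 CPM ± 45.4 (SD, n = 11). On the log2 scale this is -2.35 ± 0.64 SE (edgeR, adjusted p = 0.0124), and permutation within runs gave p = 0.00013 (two-sided). Within runs the exact permutation p was 0.0177 in run 1 and 0.00866 in run 2. The size differed between tools. With DESeq2 it was -2.35 as in edgeR (adjusted p = 0.00103), and with limma-voom it was -3.55 (adjusted p = 0.00109). The authors' deposited table, for which their notes name limma too, also gives -3.55 (adjusted p = 0.00102). Without deficient library 8, the one with the most Tlr7 in its group, edgeR gave -2.94 (adjusted p = 0.00285). Since Tlr7 is X-linked, its level was also set beside Xist and Y-linked transcripts. Deficient libraries with Xist alone above 10 CPM ranged from 3.27 to 59.1 CPM of Tlr7 (n = 3), and those with Y-linked transcripts alone ranged from 0.656 to 147 CPM (n = 8). In the sufficient group the 4 libraries with Xist alone ranged from 215 to 291 CPM and the 4 with Y-linked transcripts alone from 38.0 to 269 CPM. With both transcripts as covariates the log2 fold change of Tlr7 was -2.21 and no longer passed (edgeR, adjusted p = 0.0506), and without the 3 libraries that held both it was -2.25 (adjusted p = 0.0437).

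Tlr9, the receptor for unmethylated CpG DNA (chr9:106222598-106226883, plus strand), was lower by less. Its level was 147 to 459.6 CPM in sufficient lymphomas (median 247) and 42.5 to 289 CPM in deficient ones (median 160.4). The ranges overlap, with 4 deficient libraries below the lowest sufficient one and 10 of 11 below the sufficient median. Tlr9 fell 1.76-fold, from 261 CPM ± 93.5 (SD, n = 12) to 155 CPM ± 66.3 (SD, n = 11) (log2 scale -0.82 ± 0.22 SE, edgeR adjusted p = 0.0104, permutation within runs p = 0.00043). It was lower in both runs, with an exact permutation p of 0.0265 in run 1 and 0.0152 in run 2. Without the 3 libraries that held both Xist and Y-linked transcripts, which leaves 9 sufficient ones, the log2 fold change was -0.75 and the adjusted p of edgeR was 0.0541.

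The Tlr9 promoter is shown because it held both motifs, which are in capitals in the window chr9:106222348-106222647 (GRCm38.p6, plus strand). From the start site, a PU.1 core begins at base -112, an octamer at base -72 and a PU.1 core read on the minus strand, printed as TTCCTC, at base 13. Of the other promoters searched, that of Tlr1 held a PU.1 core at base -23 and those of Tlr6, Cd180, Myd88 and Irak4 held neither. A match describes these letters only.
Tlr9 promoter: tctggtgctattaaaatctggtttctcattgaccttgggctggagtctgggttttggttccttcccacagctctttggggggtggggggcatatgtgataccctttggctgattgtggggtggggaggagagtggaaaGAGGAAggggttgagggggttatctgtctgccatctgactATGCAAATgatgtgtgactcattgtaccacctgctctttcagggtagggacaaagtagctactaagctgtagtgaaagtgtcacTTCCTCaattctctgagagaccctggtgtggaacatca

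Unc93b1 (chr19:3935186-3949340, plus strand) encodes the chaperone that carries TLR7 and TLR9 from the endoplasmic reticulum to endosomes. Its level was 514 to 1687 CPM in sufficient lymphomas (median 1083) and 329.7 to 895 CPM in deficient ones (median 618). All 11 deficient libraries lay below the sufficient median, and 7 of the 12 sufficient libraries lay above the highest deficient one. Unc93b1 fell 1.72-fold, from 1069 CPM ± 348 (SD, n = 12) to 631 CPM ± 159 (SD, n = 11) (log2 scale -0.78 ± 0.19 SE, edgeR adjusted p = 0.00556, permutation within runs p = 0.0008). The exact permutation p was 0.0152 in run 1 and 0.0325 in run 2.

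Sufficient library 11 held the highest level of Tlr7, Tlr9 and Unc93b1 and also the highest macrophage and monocyte sum, 2270 CPM. Macrophages express these genes too. Of the defining macrophage genes, Lyz2 was lower in deficient lymphomas (153 CPM ± 168 against 38.5 CPM ± 32.9, edgeR adjusted p = 0.021) and so was Itgam (median 25.3 against 3.47 CPM, adjusted p = 0.0173). Ccr2 (7.20 CPM ± 5.55 against 1.22 CPM ± 1.13, adjusted p = 0.0017), Ms4a7 (adjusted p = 0.0207) and Cx3cr1 (adjusted p = 0.0375) were lower too. The other 9 of the 14 listed did not pass, among them Csf1r (91.5 CPM ± 113 against 49.0 CPM ± 34.5, adjusted p = 0.251) and C1qa (45.8 CPM ± 49.9 against 23.8 CPM ± 16.7, adjusted p = 0.169). Cd14 was near the limit of detection in some libraries (0.163 to 16.2 CPM in the sufficient group). Of 5 listed dendritic cell markers, Ccr9 was lower (11.9 CPM ± 14.4 against 1.03 CPM ± 0.571, adjusted p = 0.00059). Flt3 (adjusted p = 0.0155) and Xcr1 (adjusted p = 0.0011) were higher, and Itgax and Bst2 did not pass. Without library 11 the log2 fold changes were -2.29 for Tlr7 (edgeR, adjusted p = 0.0188), -0.74 for Tlr9 (adjusted p = 0.024) and -0.68 for Unc93b1 (adjusted p = 0.0145). The part of the other libraries' macrophage transcripts, or of dendritic cell transcripts, in these differences was not tested.

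Within the sufficient group, Tlr7 and Unc93b1 gave r = 0.657 and rho = 0.608 (permutation p = 0.0186 and 0.0399), which did not pass after adjustment (adjusted p = 0.0868 and 0.186). With run means subtracted r was 0.813 (adjusted permutation p = 0.00931), and within the 7 libraries of run 1 it was 0.946. Without libraries 5 and 6, the 2 with the least Tlr7, the r with run means kept was 0.248, so that r depends on those 2 libraries. The r with run means subtracted was not refitted without them. In the deficient group r was -0.275 and rho -0.173 (permutation p = 0.42 and 0.616, adjusted p = 0.735 and 0.742). Tlr9 and Unc93b1, Tlr7 and Tlr9, Myd88 and Irak4, and Tlr4 and Cd180 gave r between -0.39 and 0.555 over both groups, and none passed after adjustment. Tlr1 and Tlr6 gave r = 0.749 and rho = 0.727 in the sufficient group (permutation p = 0.00323 and 0.00961, adjusted p = 0.0226 and 0.0673), and r = 0.695 with run means subtracted (adjusted permutation p = 0.0434). Without libraries 4 and 8, the 2 farthest from the Tlr1 median, the r with run means kept was 0.483 (adjusted permutation p = 0.513). The call of that r thus depends on those 2 libraries, and the r with run means subtracted was not refitted without them. The 2 genes share sequence as given above. In the deficient group they gave r = 0.583 and rho = 0.555 (permutation p = 0.0576 and 0.0798, adjusted p = 0.202 and 0.279).

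Myd88 (chr9:119335934-119341411, minus strand), the adaptor of all the receptors above except CD180, did not differ by more than its spread. Its level was 52.3 to 111 CPM in sufficient lymphomas (median 74.6) and 47.7 to 120.3 CPM in deficient ones (median 82.7). The groups overlap over almost the whole range, and the deficient group holds both extremes. The log2 fold change was 0.15 ± 0.12 SE (edgeR, adjusted p = 0.391, permutation within runs p = 0.283). Of its exonic bases, 11.3% are shared with Acaa1a on the opposite strand, and no source used here says whether counting used strand.

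Irak4 (chr15:94543643-94581815, plus strand), the first kinase that MyD88 recruits, fell 1.55-fold. Its level was 22.2 to 87.7 CPM in sufficient lymphomas (median 59.0) and 27.4 to 57.5 CPM in deficient ones (median 37.5). The lowest library of all is sufficient number 4, yet all 11 deficient libraries lay below the sufficient median and 6 of the 12 sufficient libraries lay above every deficient one. The mean went from 59.9 CPM ± 19.3 (SD, n = 12) to 39.1 CPM ± 9.8 (SD, n = 11) (log2 scale -0.63 ± 0.18 SE, edgeR adjusted p = 0.0158, permutation within runs p = 0.00701). The exact permutation p was 0.0152 in run 2 and 0.177 in run 1, where the log2 fold change was -0.50. Of its exonic bases, 7.87% are shared with Twf1 on the opposite strand, so reads of the 2 genes may not be separable there.

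**Figure D3:**
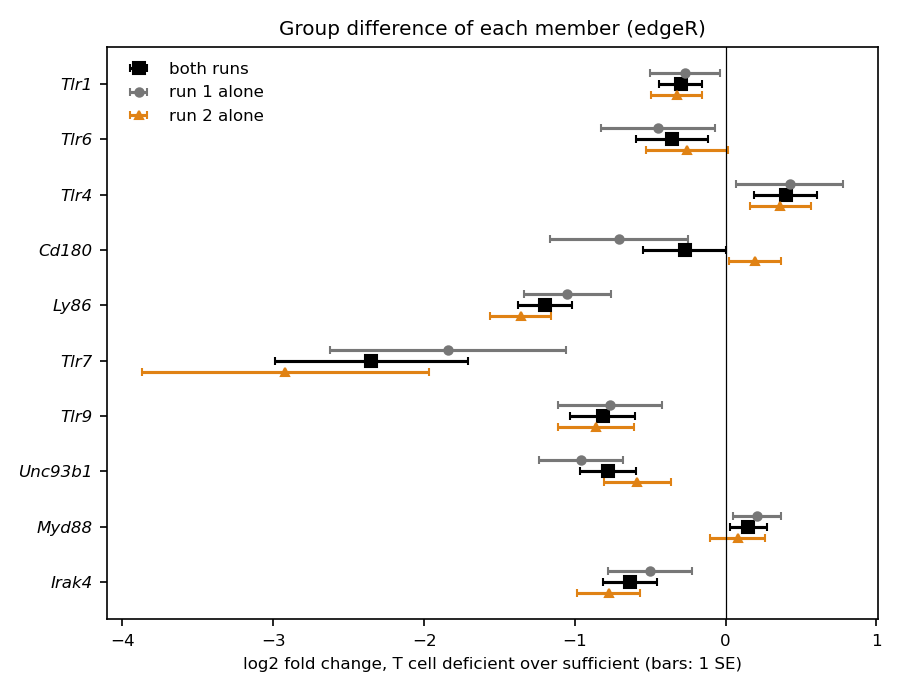
Log2 fold change of T cell deficient over sufficient lymphomas for each gene, with bars of 1 SE, from edgeR over both runs (squares), run 1 alone (circles) and run 2 alone (triangles). The 5 called genes are negative in both runs, from -0.63 for Irak4 to -2.35 for Tlr7 over both runs, and Cd180 changes sign between runs.

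Across runs, none of the 10 genes passed the test of a group by run interaction, and none of the 11020 genes did (edgeR, adjusted p under 0.05, with 723 genes, 6.56%, at an unadjusted p under 0.05). With run 1 fitted alone, edgeR called no gene at all (1832 genes, 16.6%, at an unadjusted p under 0.05), limma-voom called 0 and DESeq2 called 588. With run 2 alone, edgeR called 12.3% of all genes and 3 of the 10, namely Ly86 (adjusted p = 0.00586), Tlr9 (adjusted p = 0.0486) and Irak4 (adjusted p = 0.038).

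For each gene, the 3 genes with the most similar variation were taken as those with the highest Pearson r of log2 CPM over all 23 libraries after group and run means were subtracted, out of 11019 compared. These are descriptions, over libraries that share depth and cell make-up, and carry no p. Those of Cd180 included Nxpe2 (r = 0.879) and Ccdc50 (0.855), and Ly86 went with Map3k1 (0.811), Ccdc50 (0.8) and Cnbd2 (0.755), so that Ccdc50 stands on both lists. Tlr9 went with Rap2b (0.829), Slc15a4 (0.829) and Tgfb1 (0.827), and Slc15a4 encodes an endosomal transporter known to take part in TLR7 and TLR9 signalling. Tlr1 went with Plekhm3 (0.881), Irf5 (0.877), which encodes a transcription factor downstream of MyD88, and Sorl1 (0.867). Tlr7 went with B3gnt5 (0.876), Lgals3bp (0.829) and Vmn2r96 (0.825), and Unc93b1 with Inpp5k (0.859), Fam120aos (0.824) and Fbxw4 (0.816). Tlr6 went with Pacs1 (0.792), Sh3pxd2a (0.778) and Ormdl1 (0.756), and Tlr4 with Nedd1 (0.753), Ppp3r1 (0.734) and Gclc (0.732), lower values than for the other genes' nearest. Myd88 went with Rrad (0.889), Elovl1 (0.869) and Car5b (0.851), and Irak4 with Prr13 (0.892), Letmd1 (0.849) and Cdc42se2 (0.838).

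The rest of the pathway was followed through 121 further genes in 8 lists, of which 112 were listed and tested. Of these, 9 were higher and 23 lower in deficient lymphomas and 80 did not pass, so 28.6% were called beside 22.2% of all genes, with a median log2 fold change of -0.15. Calls were only in the lower direction in 4 lists, those of the nucleases that make or remove nucleic acid ligands, of B cell receptor signalling, of folding and traffic, and of the other Toll-like receptors, and the IL-1 receptor family held calls only in the higher one. Each list is small, and its counts below stand beside 22.2% of all genes called, 10.6% higher and 11.7% lower. Folding and traffic (4 of 19) and the other Toll-like receptors (2 of 8) were called at close to that 22.2%.

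**Figure D4:**
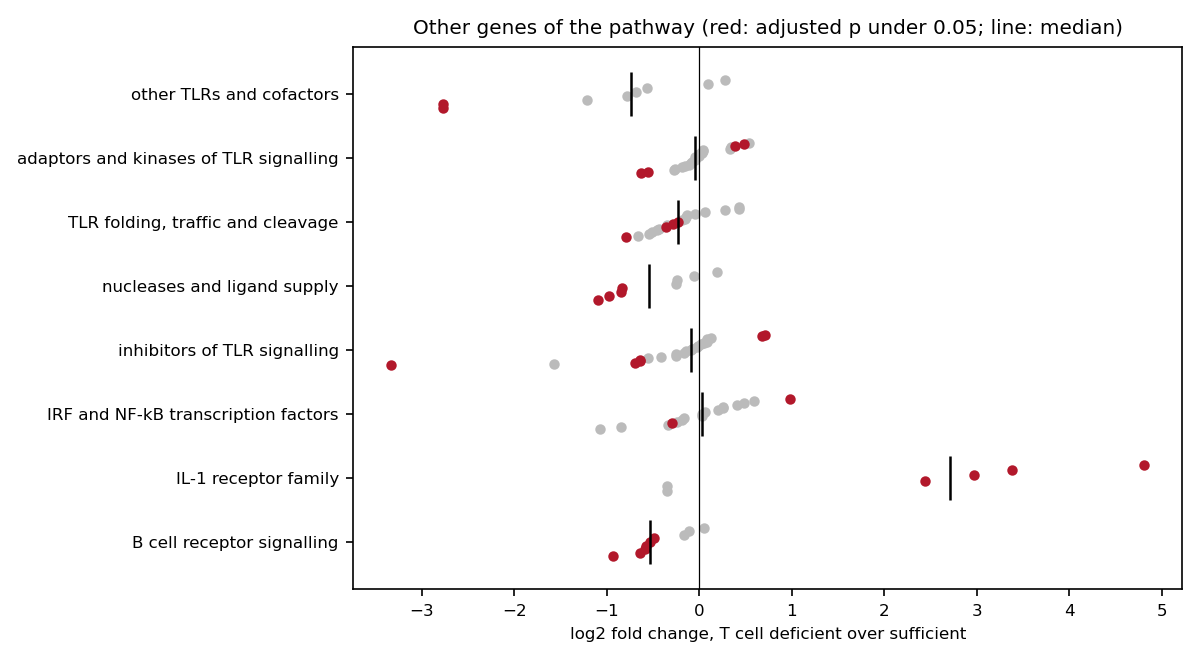
Log2 fold change of deficient over sufficient lymphomas for the tested genes of each pathway list, red where edgeR's adjusted p is under 0.05, with a line at the list median. The medians run from -0.73 for the other Toll-like receptors to 2.71 for the IL-1 receptor family.

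Among the nucleases, 4 of 8 tested genes were lower, none was higher, and the median log2 fold change was -0.54. Pld3, an exonuclease of endosomes that degrades TLR9 ligands, was lower 2.13-fold, from 71.7 CPM ± 33.7 (SD, n = 12) to 33.8 CPM ± 6.12 (SD, n = 11; edgeR, adjusted p = 0.00123). Its relative Pld4 went from 537 CPM ± 325 to 275 CPM ± 73.4 (adjusted p = 0.0133). Rnaset2b, one of a pair of mouse genes for an RNase that makes TLR7 ligands, went from 16.7 CPM ± 6.15 to 9.39 CPM ± 4.27 (adjusted p = 0.0135), and its near-identical copy Rnaset2a was not analysed here, so its value is uncertain. Dnase1l3, a DNase for chromatin in microparticles, also passed (adjusted p = 0.035), but not in 10 of the 23 fits that each left out 1 library (adjusted p up to 0.0657). Without the 3 libraries with both Xist and Y-linked transcripts, neither Rnaset2b (adjusted p = 0.0728) nor Dnase1l3 (adjusted p = 0.095) passed.

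In the list of folding, traffic and cleavage, 4 of 19 were lower and none was higher, with a median of -0.23. Ctss, which encodes a protease that cleaves endosomal Toll-like receptors, was lower 1.73-fold, from 510.0 CPM ± 127 to 293 CPM ± 54.8 (edgeR, adjusted p = 0.000626), and 10 of 11 deficient libraries lay below the lowest sufficient one. Sdcbp went from 223 CPM ± 32.6 to 171 CPM ± 32.9 (adjusted p = 0.0139). Bloc1s1 (adjusted p = 0.0433) and Ap3d1 (adjusted p = 0.0462), a subunit of the AP-3 sorting complex, each lost the call in 12 of the 23 fits without 1 library, and without the 3 libraries named above (adjusted p = 0.138 and 0.0872). The chaperones of Toll-like receptor folding did not pass, with log2 fold changes of -0.66 ± 0.39 SE for Hsp90b1 (adjusted p = 0.225) and -0.14 ± 0.14 SE for its cofactor Cnpy3 (adjusted p = 0.494).

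Of the other Toll-like receptors and surface cofactors, 2 of 8 tested were lower, none was higher, and the median was -0.73. Tlr2 reached 56.0 CPM in sufficient and 74.7 CPM in deficient lymphomas, with means of 27.6 CPM ± 16.8 and 31.9 CPM ± 22.7. Tlr3, Tlr8 and Tlr13 averaged 4.75 CPM ± 3.57, 4.20 CPM ± 6.38 and 4.19 CPM ± 4.94 in the sufficient group, and none of these 4 passed the test. Cd36, a scavenger receptor that works with TLR2 and TLR6, ranged from 2.71 to 1900.0 CPM in sufficient and from 1.42 to 270.0 CPM in deficient lymphomas (edgeR, log2 fold change -2.77 ± 0.85 SE, adjusted p = 0.0234). Its log2 fold change was -2.08 without sufficient library 1 (adjusted p = 0.049), and the call was lost in run 2 alone (0.116), with Xist and Y-linked covariates (0.0942) or without the 3 libraries that held both (0.0541, each an adjusted p). Tlr12 was also lower (adjusted p = 0.0158), with means of 11.5 CPM ± 15.5 and 1.52 CPM ± 0.968, but without sufficient library 11 its adjusted p was 0.126 and its log2 fold change -2.05, and without the 3 libraries its adjusted p was 0.112.

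Of the adaptors and kinases, 2 of 22 were higher, 2 were lower and the median was -0.05. Ube2n, the ubiquitin-conjugating enzyme that works with TRAF6, rose from 51.3 CPM ± 11.0 to 64.5 CPM ± 11.4 (edgeR, adjusted p = 0.00216). Irak2, a kinase that joins IRAK4 in the Myddosome, fell from 112 CPM ± 37.3 to 74.4 CPM ± 18.3 (adjusted p = 0.00738), and Sharpin, a subunit of the linear ubiquitin ligase, fell from 72.6 CPM ± 20.5 to 50.4 CPM ± 9.25 (adjusted p = 0.003). Tirap, a bridging adaptor for TLR2 and TLR4, passed narrowly upward (adjusted p = 0.0493) and lost the call in 18 of the 23 fits without 1 library and without the 3 libraries (adjusted p = 0.116). Irak1 (log2 fold change -0.09 ± 0.21 SE, adjusted p = 0.78) and Traf6 (-0.05 ± 0.10 SE, adjusted p = 0.74) did not pass.

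Among the inhibitors, 4 of 23 were lower, 2 higher, and the median was -0.08. Lyn, a Src-family kinase with inhibitory roles in B cells, fell from 526 CPM ± 151 to 343 CPM ± 70.9 (edgeR, adjusted p = 0.00341), and the phosphatase gene Ptpn6 from 996 CPM ± 350 to 625 CPM ± 142 (adjusted p = 0.00901). Socs3 fell from 20.0 CPM ± 15.8 to 2.48 CPM ± 5.65 (log2 fold change -3.33, adjusted p = 0.00905). The deficient median was 0.955 and the highest deficient library 19.4 CPM, and without deficient library 7 the log2 fold change was -4.65 (adjusted p = 0.000293). Tnfaip3, which encodes the NF-kB inhibitor A20, rose from 76.0 CPM ± 17.7 to 125 CPM ± 46.7 (adjusted p = 0.00719). Of the IRF and NF-kB factors, 1 of 17 was higher and 1 lower, with a median of 0.03. Rela, an NF-kB subunit, went from 128 CPM ± 19.1 to 104 CPM ± 12.3 (adjusted p = 0.0208). Rela did not pass with no scaling beyond library totals (adjusted p = 0.0609), in run 2 alone (0.112) or without the 3 libraries with both Xist and Y-linked transcripts (0.0564). Nfkbid (adjusted p = 0.0433) lost the call in 18 of the 23 fits without 1 library and without those 3 (adjusted p = 0.18). Irf5 (280.0 CPM ± 53.2 and 294 CPM ± 104, adjusted p = 0.922) and Irf8 (767 CPM ± 485 and 423 CPM ± 287, adjusted p = 0.145) did not pass.

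Of the genes of B cell receptor signalling, a pathway known to act with TLR9 and MyD88 in human lymphoma, 6 of 9 were lower, none was higher, and the median was -0.53. Syk, the kinase next to the receptor, fell from 1380.0 CPM ± 469 to 732 CPM ± 235 (edgeR, adjusted p = 0.00175), with 9 of 11 deficient libraries below the lowest sufficient one. Prkcb, a protein kinase C of this pathway, fell from 942 CPM ± 168 to 612 CPM ± 145 (adjusted p = 0.00101). Cd79a, a signalling chain of the receptor, fell from 1280.0 CPM ± 369 to 855 CPM ± 181 (adjusted p = 0.0195). The B cell markers share Cd79a and Cd79b with this list, and Cd79b is the middle gene of both, so their equal medians are the value of 1 gene. The part of B cell content in these values was not tested.

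The list of the IL-1 receptor family, whose signalling receptors use the same MyD88 and IRAK4, had 4 of 6 tested genes higher and none lower. Its median log2 fold change was 2.71. The 6 include the decoy Il1r2 and Il18bp, which encodes a secreted IL-18 binding protein and not a receptor (-0.35 ± 0.33 SE, edgeR adjusted p = 0.461). Il1r1, the signalling receptor for IL-1, was between 0 and 3.03 CPM in sufficient and between 3.80 and 59.9 CPM in deficient lymphomas (edgeR, log2 fold change 4.81 ± 0.69 SE, adjusted p = 0.00019). These ranges do not overlap, and the share of all genes that separate in this way is not given here. The co-receptor gene Il1rap did not pass (13.9 CPM ± 6.13 and 11.2 CPM ± 5.28, adjusted p = 0.464). The decoy receptor gene Il1r2 (adjusted p = 0.0095), Il18r1 (adjusted p = 0.0169) and Il1rl2 (adjusted p = 0.0305) were higher from low levels, with sufficient means of 0.948 CPM ± 1.22, 2.17 CPM ± 2.74 and 0.439 CPM ± 0.605. With limma-voom, Il1r2 (adjusted p = 0.0827) and Il18r1 (adjusted p = 0.243) did not pass. The log2 fold change of Il1r2 was 2.97, and 3.59 without sufficient library 3 (edgeR, adjusted p = 0.00209). Without the 3 libraries with both Xist and Y-linked transcripts, Il18r1 (adjusted p = 0.0901) and Il1rl2 (adjusted p = 0.0713) did not pass edgeR's test. Il1rl2, tested in only 20 of the 23 fits without 1 library, also lost the call without sufficient library 8, deficient library 1 or deficient library 2 (adjusted p up to 0.0702). These 4 genes lie in the same stretch of chromosome 1, with Il1rl1 (not analysed here) between Il1rl2 and Il18r1, from the start of Il1r2 at base 40074079 to the end of Il18r1 at base 40500854 (GRCm38).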

How the data were processed

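Each sample is RNA of purified B lymphoma cells from spleen, made into TruSeq RNA libraries per the labels' protocols. The labels number the lymphomas and do not state the animal of each, so p-values measure the spread between these lymphomas. The authors deposited raw counts per gene for 23 libraries, with CPM beside them (count over library total) and a comparison table with log2 fold changes, p-values (raw and adjusted) and log2 mean levels. The package limma and the builds mm10 and GRCm38 are named in the submitters' processing notes. The sources used here name no aligner, counting tool, annotation or strand setting. The repeat library of sufficient lymphoma 1 was not used here, and whether the column of that lymphoma holds 1 or both of its libraries is unknown. The column of sufficient lymphoma 4 was matched by its number, since its suffix differs from the label.

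Counts were tested with edgeR 4.0.16 (R 4.3.3, filterByExpr, TMM, robust quasi-likelihood fit, terms for run and group) over 11020 genes with Benjamini-Hochberg adjustment. The filter removed 120 genes. CPM in the text are TMM-scaled, log2 CPM use a prior count of 2, and the SE is the log2 fold change over the root of F. Permutations drew 100000 relabellings within runs, or every split within 1 run, and were two-sided. limma 3.58.1, DESeq2 1.42.0 and the settings in the closing section are alternatives. The 10 genes, the pathway and marker lists and the tests were chosen with earlier results of these data known. Named were all 10 genes, up to 4 called genes with the smallest p of each pathway list, Il1r1, Il1rap, defining markers and, for each gene, the 3 most similar. Hsp90b1, Cnpy3, Tlr2, Tlr3, Tlr8, Tlr13, Irak1, Traf6, Irf5 and Irf8 were added after their values were seen. So were Il18bp, Ccr2, Ms4a7, Cx3cr1 and most named markers of B cells and dendritic cells. Positions are from GENCODE M21 (GRCm38) and promoters from RefSeq (GRCm38.p6). On simulated counts for this comparison (10996 genes tested), the share of changed genes called was 41.8% at 1.5-fold, 72.7% at 2-fold and 90.3% at 4-fold, with 7 false calls. The simulated counts had no run effect and varied independently between genes, so these figures may not hold for the real libraries. Further promoter motifs were searched and are not reported here. Some genes that the rule for naming takes are likewise left out. No 2 libraries of a group differed by as little as sampling noise (chi-square per degree of freedom at least 31.0).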

Additional observations from a re-analysis of the deposited data

How the results depend on the processing

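Each gene was compared under 13 other settings and with each of the 23 libraries left out. The settings include the main fit read at an adjusted p under 0.01, which is not a refit. Over the 130 comparisons of the 10 genes with no library left out, 117 kept direction and side of the threshold, 12 lost the call and 1 reversed, which is Cd180 in run 2 alone (0.19, and 0.16 as a difference of mean log2 CPM). Of the 5 genes called lower, 0 were called in run 1 alone, 3 in run 2 alone and 2 at an adjusted p under 0.01, and leaving out single libraries left 5 in each case, while the number called higher ran from 0 to 1. Fewer libraries are left in single runs. Unc93b1 and Tlr7 lost the call in run 2 alone (adjusted p = 0.104 and 0.0674).

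Pathway genes called higher (9) were 0 in run 1 alone, 5 with the replicate block, 4 without the libraries with both Xist and Y-linked transcripts, 4 at an adjusted p under 0.01 and 5 to 9 with 1 library left out. Those called lower (23) were 0 in run 1 alone, 12 in run 2 alone, 14 with the replicate block, 13 without those libraries, 9 at the stricter threshold and 17 to 27 with 1 library left out. All genes called higher (1163) were 0 in run 1 alone, 629 in run 2 alone, 653 without those libraries, 465 at the stricter threshold and 828 to 1337 with 1 library left out. All genes called lower (1285) were 0, 730, 817, 562 and 1056 to 1446. With no scaling beyond library totals the split of calls was 1608 higher and 1027 lower and the median of all genes was 0.06, and the directions of the 10 genes did not change.

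Correlations changed as follows. With the 2 farthest libraries left out, r was 0.796 for Cd180 and Ly86 and 0.483 for Tlr1 and Tlr6 in sufficient lymphomas, and both lost the call. With run means subtracted, r was 0.889 for Cd180 and Ly86 in deficient and 0.813 for Tlr7 and Unc93b1 in sufficient lymphomas, and both gained it. The sign changed, in pairs that passed no test, for Tlr7 and Unc93b1 in deficient (0.0784), Tlr9 and Unc93b1 in sufficient (-0.203), Tlr7 and Tlr9 in sufficient (-0.174) and deficient (0.377 and 0.0869), Myd88 and Irak4 in sufficient (-0.271) and Tlr4 and Cd180 in deficient lymphomas (-0.0475). The cause was not tested.

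Replicate numbers do not pair the samples: same-numbered libraries correlated between -0.28 and 0.29 over 11 pairs, and 1 sufficient library correlated best with its own number. With the replicate number as a block, 892 genes were called higher and 940 lower, the same number of the 10 genes was called (5, all lower), and the log2 fold change of Tlr7 was -3.22. Among the named pathway genes, Tlr12, Cd36, Tirap, Ap3d1, Bloc1s1, Rela, Nfkbid, Il1rl2, Il18r1 and Cd79a did not pass with the block (adjusted p of 0.0757 for Cd36, 0.0655 for Rela and 0.0804 for Il18r1). Depth limits genes near 0.098 to 0.396 CPM, such as Il1rl2 in the sufficient group (median 0.141 CPM). Tlr7 in deficient library 6, at 0.656 CPM from 15 reads, lay above this range.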
